A study of Mus musculus with 7 samples.

Results

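The 10 genes described here encode enzymes of glycerolipid synthesis: Gpam, Agpat1, Agpat2, Agpat3, Agpat5, Lpin1, Lpin2, Dgat1, Dgat2 and Mogat1. They are 10 of 18193 genes named on the array. All probe sets whose platform annotation gave exactly 1 of these symbols were taken, 23 of the 45037 that are not controls, and 0 probe sets named a member together with another gene. The data came from Affymetrix arrays of frozen liver from 3 wild-type mice (WT-103, WT-104 and WT-27) and 4 mice lacking miR-122 (KO-90, KO-91, KO-94 and KO-03), with 1 array per animal. All 7 animals were 2 months old, of B6/129 background, and no treatment is named. The labels do not give the sex, the litter or the cells that lost the gene. miR-122 is a microRNA that hepatocytes make in abundance, and the study set liver RNA with and without it side by side. Values are log2 expression values, so a difference of 1 is a doubling, and levels of different probe sets are not compared with each other.

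Glycerolipid synthesis joins fatty acids to a glycerol backbone. Gpam, a mitochondrial glycerol-3-phosphate acyltransferase, adds the first acyl chain, and the Agpat enzymes add the next to form phosphatidate. The lipins Lpin1 and Lpin2 remove the phosphate to give diacylglycerol, and Dgat1 and Dgat2 add the last chain to make triglyceride. Mogat1 reaches diacylglycerol from monoacylglycerol instead, and phosphatidate and diacylglycerol are also the starting points of phospholipids. In liver the pathway supplies lipid droplets and secreted lipoproteins.

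The promoters of the 4 genes that the results below turn on are shown as the 250 bases before the most upstream listed start, from RefSeq on build GRCm38.p6, written 5′ to 3′ along the gene. Capitals mark matches on either strand to CACGTG, the core of an E-box, or to CCAAT, which reads ATTGG on the other strand.

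Agpat1, chr17:34605611-34605860 (plus strand): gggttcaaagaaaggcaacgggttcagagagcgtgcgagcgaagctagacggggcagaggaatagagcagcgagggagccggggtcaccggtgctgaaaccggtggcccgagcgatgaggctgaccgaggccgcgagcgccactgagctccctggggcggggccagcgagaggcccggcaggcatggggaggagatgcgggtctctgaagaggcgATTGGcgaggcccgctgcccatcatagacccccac
Gpam, chr19:55127239-55127488 (minus strand): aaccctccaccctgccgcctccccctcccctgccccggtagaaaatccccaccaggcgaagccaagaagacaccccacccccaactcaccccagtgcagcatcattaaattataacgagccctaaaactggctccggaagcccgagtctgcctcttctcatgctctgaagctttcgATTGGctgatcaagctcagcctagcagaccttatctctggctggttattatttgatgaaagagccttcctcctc
Lpin2, chr17:71183282-71183531 (plus strand): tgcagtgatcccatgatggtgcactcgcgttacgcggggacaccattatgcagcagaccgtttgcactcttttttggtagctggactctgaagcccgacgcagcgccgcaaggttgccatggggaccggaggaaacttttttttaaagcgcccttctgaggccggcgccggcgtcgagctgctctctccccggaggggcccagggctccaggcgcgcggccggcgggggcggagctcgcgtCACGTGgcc
Mogat1, chr1:78510810-78511059 (plus strand): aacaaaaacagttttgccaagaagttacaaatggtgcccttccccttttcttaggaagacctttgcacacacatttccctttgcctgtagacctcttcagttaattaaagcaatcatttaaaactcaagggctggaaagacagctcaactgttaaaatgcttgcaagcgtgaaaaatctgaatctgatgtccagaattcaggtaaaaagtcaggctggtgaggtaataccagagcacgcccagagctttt

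Of the 10 genes, 7 had a promoter window in that table, with 11 windows in all. CACGTG stood in 1 of the 11, the Lpin2 window shown, 9 bases before the start, and in 6.02% of all 32851 windows of the same length. CCAAT stood in 3 of the 11, those shown for Agpat1, 35 bases before the start, and Gpam, 74 bases before it, and another of Lpin2, and in 33.8% of all windows. Neither motif was found in the Mogat1 window.

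Array medians lay between 4.65 and 4.71, and Pearson correlations across probe sets ran from 0.985 to 0.990 among wild types, from 0.976 to 0.991 among knockouts and from 0.965 to 0.988 across genotypes. KO-03 correlated with wild type at 0.981 to 0.988 and the other knockouts at 0.965 to 0.985. The number of arrays limits the precision. No probe set used here reports miR-122 itself, so the data hold no direct check of the genotypes. All 9 hepatocyte markers examined were measured, and their mean log2 level was 13.44 to 13.56 in wild type and 13.57 to 13.73 in knockout. None of them passed at a limma adjusted p under 0.05. Their differences ran from -0.08 for Cps1 to 0.90 for Tat (limma adjusted p = 0.0533). Of markers of other cells, 3 of 7 for stellate cells (Hand2, Dcn and Pdgfrb), 2 of 5 for cholangiocytes (Krt19 and Epcam) and 2 of 5 for leukocytes (S100a8 and S100a9) were higher in knockout at a limma adjusted p under 0.05. With 1 probe set per gene, 2.58% of all genes were higher at that threshold and 0.951% lower. The mean log2 level of the stellate cell markers was 7.52 to 7.62 in wild type and 7.90 to 8.34 in knockout. That of the cholangiocyte markers was 4.19 to 4.41 and 4.73 to 5.69, with Krt7 and Cftr no brighter than the brightest bacterial control on any array. That of the leukocyte markers was 5.37 to 5.97 and 6.74 to 7.78. Of these, S100a8 and S100a9 differed by 3.33 and 3.16, Ptprc by 0.56 and Cd3e by 0.01. Cd79a was no brighter than the brightest bacterial control on any array. Krt19 and Epcam were no brighter than that control on 2 wild-type arrays each, and S100a8 on 1. None of the Kupffer cell, endothelial, pancreas or adipocyte markers passed. Their part in the differences below was not tested. In these bulk samples fewer cells of a type and less RNA per cell cannot be told apart.

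Agpat1 was the only one of the 10 genes to pass the test, and it rose about 2-fold in knockout on both of its probe sets. The other 9 genes did not pass on any probe set. Of the 23 member probe sets 2 rose, 0 fell and 21 did not pass in limma at an adjusted p under 0.05, where 1.29% of all probe sets rose and 0.32% fell. At an unadjusted p under 0.05, 5 member probe sets were higher and 2 lower, against 7.8% and 5.51% of all probe sets. Those higher were of Agpat1, Agpat3 and Lpin2 and those lower of Gpam, so genes with several probe sets count repeatedly. The median difference was 0.19 over the 23 probe sets and -0.0047 over all probe sets. The 4 knockout animals lay above all wild-type animals in 2 member probe sets, those of Agpat1, and below them in 2, those of Gpam, and overlapped in 19. Over all probe sets 7.25% lay above and 5.53% below.

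**Figure D1:**
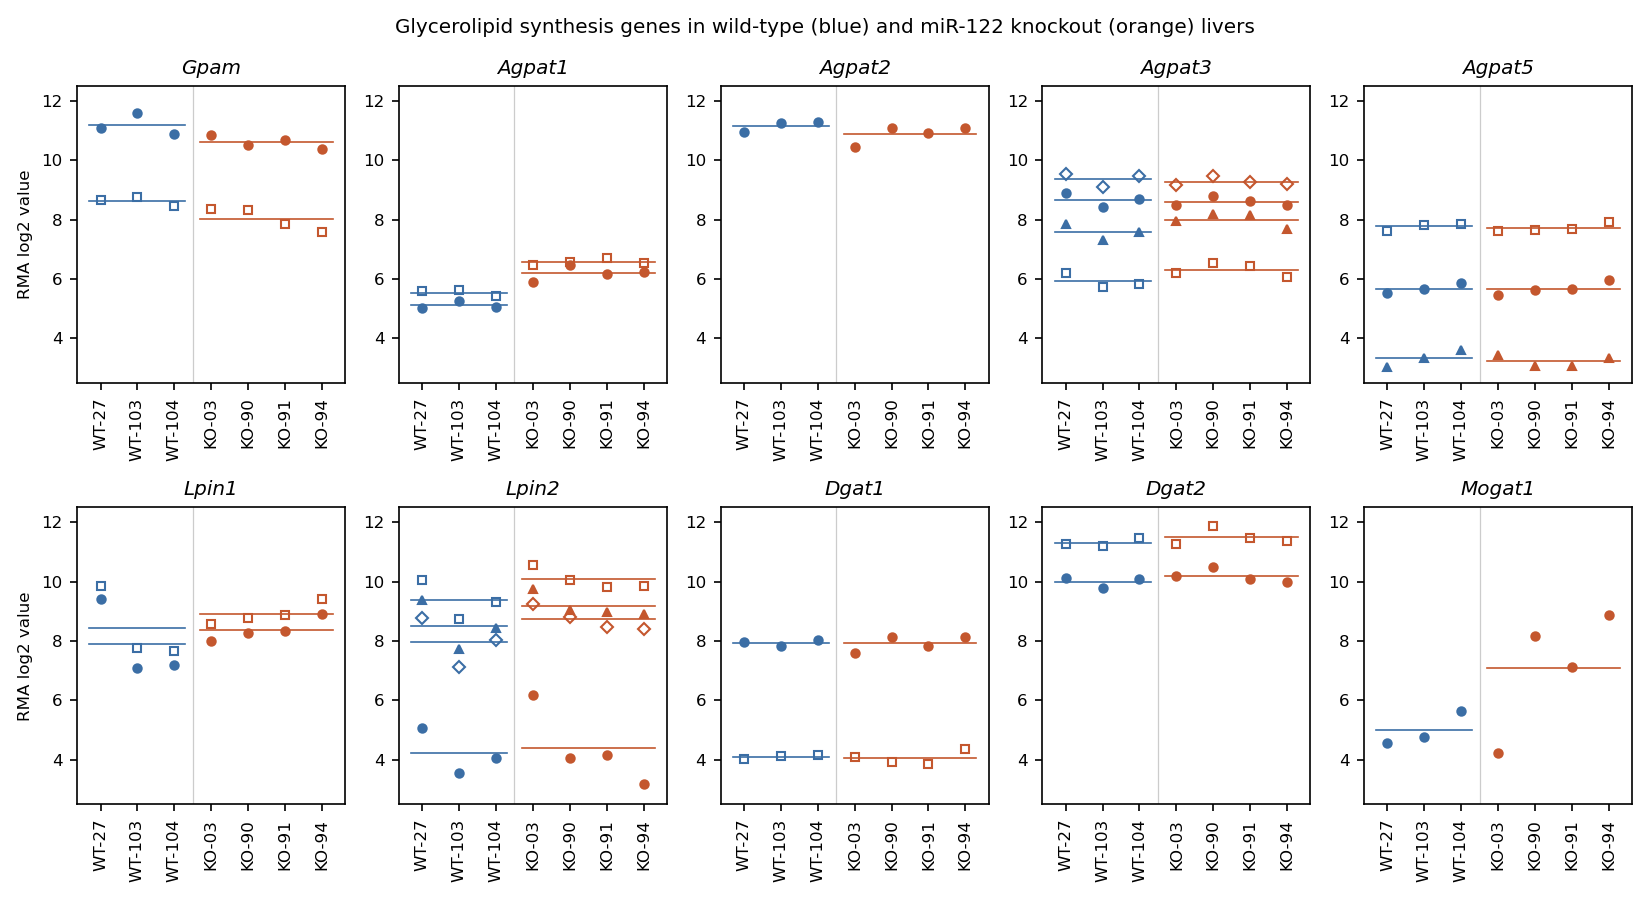
Log2 value of every member probe set in each animal, with wild type in blue, knockout in orange and a line at each group mean; marker shapes tell apart the probe sets of a gene. Agpat1 is the gene whose knockout animals all lie above the wild types, between 5.89 and 6.72 over its 2 probe sets, and Mogat1 spans 4.23 to 8.87 within knockout.

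**Figure D2:**
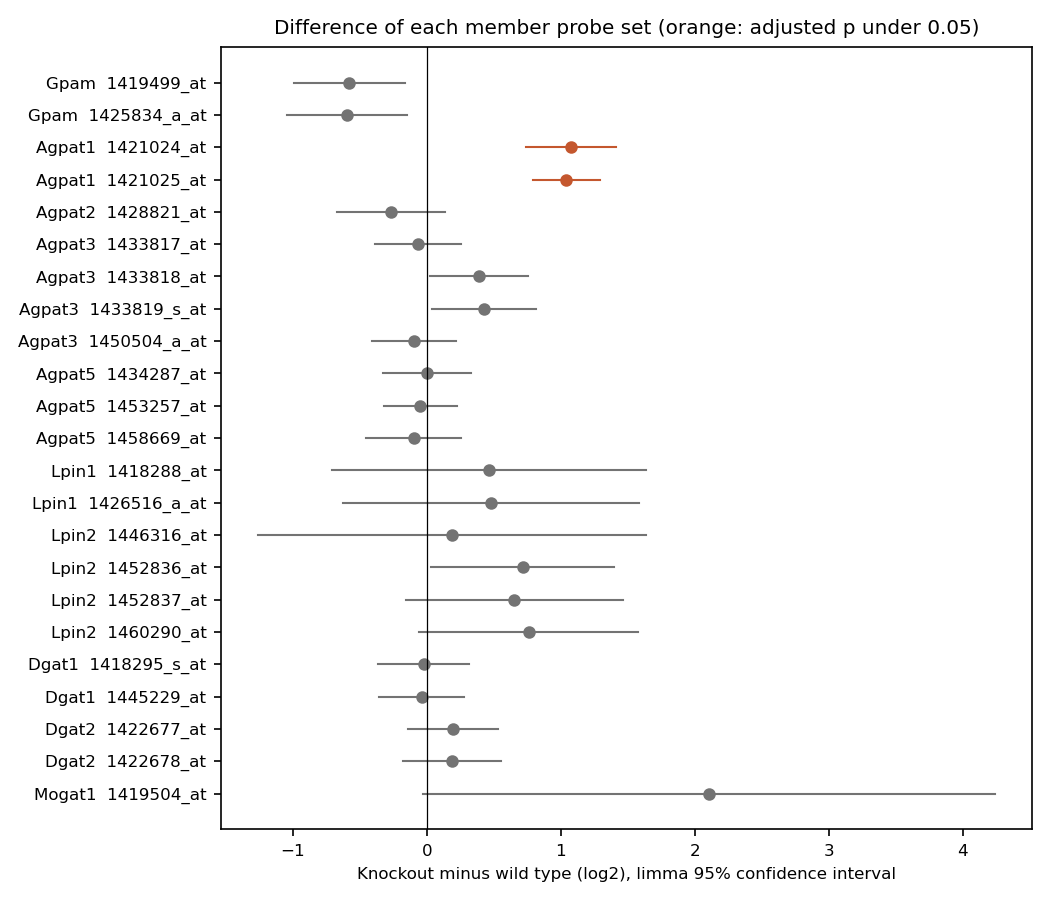
Difference, knockout minus wild type, of each member probe set on the log2 scale, with its 95% confidence interval from limma. The 2 probe sets of Agpat1, in orange, passed at an adjusted p under 0.05, and the other 21, in grey, did not.

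Agpat1 makes phosphatidate from lysophosphatidate in the endoplasmic reticulum and is among the published targets of miR-122, a status that may rest in part on work on this knockout. Probe set 1421025_at read 5.59 for WT-27, 5.61 for WT-103 and 5.42 for WT-104. It read 6.48 for KO-03, 6.58 for KO-90, 6.72 for KO-91 and, lastly, 6.55 for KO-94. Every knockout animal was higher than every wild-type animal, and the spread within each genotype was small. The means were 5.54 ± 0.11 (SD, n = 3) and 6.58 ± 0.10 (SD, n = 4), a difference of 1.04 ± 0.11 (SE) or 2.06-fold, with a 95% interval of 0.79 to 1.29 (limma adjusted p = 0.00338). Probe set 1421024_at stood at 5.03, 5.24 and 5.05 in wild type and at 5.89, 6.48, 6.15 and 6.22 in the knockouts in the same order. KO-03 was the lowest knockout on both probe sets. The difference was 1.08 ± 0.15 (SE), with an interval of 0.74 to 1.41 (limma adjusted p = 0.0115), and its call was lost without WT-27 (1.04, limma adjusted p = 0.0558). The annotation gives both probe sets the same source sequence, so they are not independent measurements. Wild-type Agpat1 was dim: on 1421024_at WT-104 lay under the floor, the highest bacterial control probe set of each array (4.71 to 5.23), while on 1421025_at every animal lay above it.

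The other lysophosphatidate acyltransferases did not pass. Agpat2, the enzyme whose loss causes lipodystrophy, averaged 11.16 ± 0.19 (SD, n = 3) in wild type against 10.89 ± 0.30 (SD, n = 4), a difference of -0.27 with an interval of -0.67 to 0.13. KO-03 was its lowest animal at 10.46, and the groups overlapped. The 4 probe sets of Agpat3, which acts at the endoplasmic reticulum and Golgi, disagreed in sign. Its 1433818_at and 1433819_s_at differed by 0.39 (interval 0.02 to 0.75, limma adjusted p = 0.346) and 0.43 (0.04 to 0.81, limma adjusted p = 0.322), while 1433817_at and 1450504_a_at differed by -0.06 and -0.10. WT-103 was the lowest animal on all 4. The 3 probe sets of Agpat5, a mitochondrial member of the family, differed by 0.00, -0.05 and -0.10, with intervals that together ran from -0.45 to 0.33. One of them, 1458669_at, did not exceed the floor in any animal. The intervals of Agpat2 and Agpat5 lay below that of Agpat1's brighter probe set, and the difference between the genes was not tested.

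Gpam was lower in every knockout animal than in every wild-type animal on both of its probe sets, and did not pass. On 1419499_at the wild types stood at 11.08, 11.58 and 10.90 and the knockouts at 10.85, 10.52, 10.68 and 10.39. The nearest animals of the genotypes, WT-104 and KO-03, were close to each other. The difference was -0.58 ± 0.18 (SE), with an interval of -0.99 to -0.16 (unadjusted p = 0.0118, limma adjusted p = 0.202). On 1425834_a_at the values were 8.65, 8.75 and 8.46 against 8.34, 8.33, 7.84 and 7.59, a difference of -0.60 ± 0.20 (SE) with an interval of -1.04 to -0.15 (limma adjusted p = 0.224). KO-94 was the lowest animal on both. With 1 animal left out, the difference of 1419499_at ran from -0.72 without WT-104 to -0.38 without WT-103 (limma adjusted p = 0.545), and that of 1425834_a_at from -0.70 without KO-03 to -0.45 without KO-94.

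Lpin1 varied more between wild-type animals than between knockouts. On its probe set 1426516_a_at, WT-27 stood at 9.85 and WT-103 and WT-104 at 7.75 and 7.68, while the knockouts stood at 8.56, 8.78, 8.88 and 9.41. All 4 knockouts thus lay between WT-27 and the other wild types. The difference was 0.48 ± 0.49 (SE), with an interval of -0.62 to 1.58 (limma adjusted p = 0.732). Without WT-27 it was 1.19 ± 0.22 (SE) and still did not pass (limma adjusted p = 0.0759). It was 0.14 without WT-103, 0.11 without WT-104 and 0.31 without KO-94. The second probe set, 1418288_at, gave 0.46 with all animals and 1.22 without WT-27 (limma adjusted p = 0.0841). It gave 0.059 without WT-103, 0.11 without WT-104 and 0.28 without KO-94.

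Lpin2, another lipin, was highest in KO-03 on all 4 of its probe sets. On 1452836_at the wild types stood at 10.05, 8.73 and 9.31 and the knockouts at 10.58, 10.07, 9.82 and 9.87. WT-27 reached the level of the knockouts, and WT-103 was the lowest animal. The difference was 0.72 ± 0.30 (SE), with an interval of 0.03 to 1.40 (limma adjusted p = 0.348), 1.06 without WT-27 (limma adjusted p = 0.148) and 0.40 without WT-103 (limma adjusted p = 0.765). Probe sets 1452837_at and 1460290_at differed by 0.65 and 0.76 (limma adjusted p = 0.490 and 0.413), by 1.08 and 1.16 without WT-27, and by 0.26 and 0.33 without WT-103. The dim 1446316_at, at or under the floor on 2 wild-type and 3 knockout arrays, differed by 0.19 and ran from -0.41 without KO-03 to 0.61 without WT-27. WT-27 lay over 1 above both other wild types in 3 of the 23 member probe sets, 2 of Lpin1 and the dim one of Lpin2, as in 0.34% of all probe sets. Among the further pathway genes described below, it lay 1.40 above both in Gpat3, a glycerol-3-phosphate acyltransferase of the endoplasmic reticulum, 1.29 in Chka, which phosphorylates choline, and 1.78 in G0s2, an inhibitor of lipolysis. These were picked out after their values were seen.

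The enzymes of the last step differed little. Dgat2, the main hepatic enzyme for newly made fatty acids, stood at 11.26, 11.19 and 11.49 in wild type and 11.26, 11.88, 11.48 and 11.37 in knockout on 1422678_at. The genotypes overlapped, and KO-90 was the highest animal on both Dgat2 probe sets. The differences were 0.19 and 0.20, with intervals of -0.18 to 0.55 and -0.14 to 0.53 (limma adjusted p = 0.678 and 0.629). Dgat1 was 7.94 ± 0.10 (SD, n = 3) and 7.92 ± 0.25 (SD, n = 4) on 1418295_s_at, a difference of -0.02 with an interval of -0.37 to 0.32, and its other probe set did not exceed the floor in any animal.

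Mogat1 had the largest difference among the members and the widest spread. It stood at 4.57 in WT-27, 4.75 in WT-103 and 5.66 in WT-104, and at 4.23, 8.17, 7.13 and 8.87 in the knockouts in the order given for Agpat1. KO-03 was the lowest of all 7 animals, and the other 3 knockouts lay above every wild type. WT-27, WT-103 and KO-03 were at or under the floor. The means were 4.99 ± 0.58 (SD, n = 3) and 7.10 ± 2.04 (SD, n = 4), a difference of 2.11 ± 0.94 (SE) with an interval of -0.03 to 4.24 (limma adjusted p = 0.381). Without KO-03 the difference was 3.06 ± 0.44 (SE) and passed (limma adjusted p = 0.0111), with 2 of the 3 wild types still at or under the floor. Without WT-103 it was 1.99 and did not pass (limma adjusted p = 0.70). Among knockouts KO-03 also had the lowest mean of the cholangiocyte (4.73), stellate cell (7.90), Kupffer cell (8.80) and endothelial (7.29) markers, and not of the hepatocyte, adipocyte, leukocyte or pancreas markers. The part of these cells in Mogat1 was not tested. Of 4 measured adipocyte markers, a cell type that also makes triglyceride by these enzymes, Adipoq and Lep did not exceed the floor in any animal and 0 passed. Fabp4 lay above the floor in every animal, at 7.14 to 7.42 in wild type and 7.05 to 7.80 in knockout. Retn was at or under it in 1 wild type and 1 knockout.

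**Figure D3:**
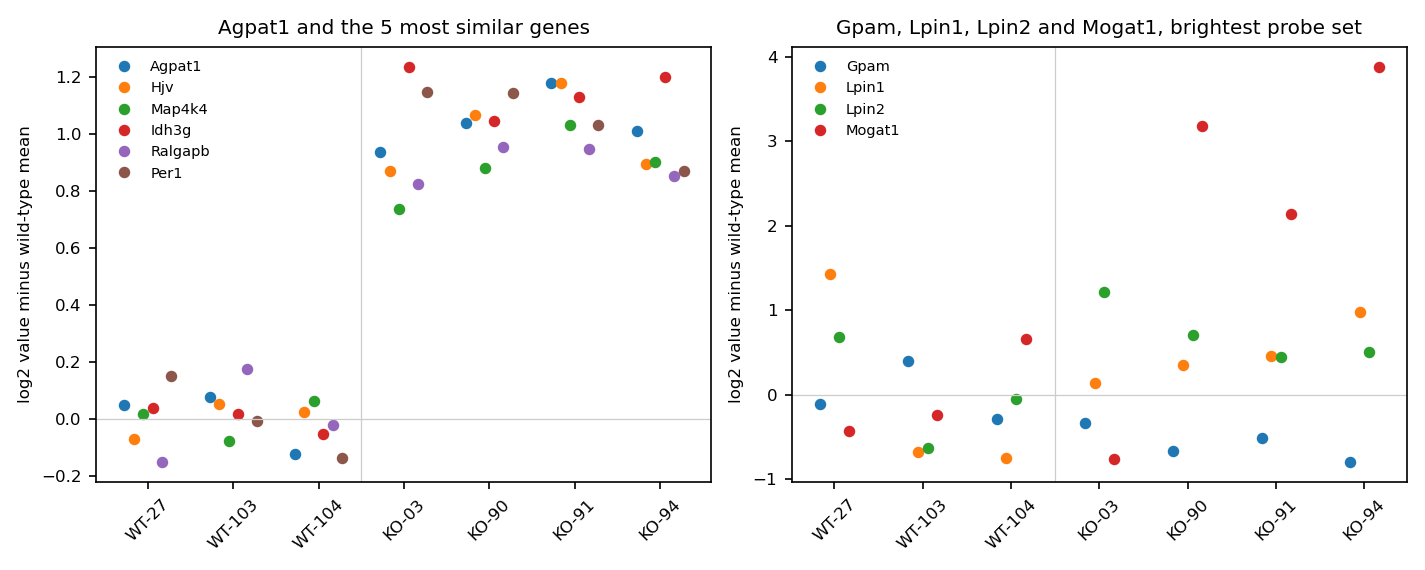
Log2 value in each animal minus the wild-type mean of the same gene, with 1 probe set per gene; points of an animal are set side by side for legibility. Left, Agpat1 with the 5 genes of most similar pattern; right, Gpam, Lpin1, Lpin2 and Mogat1, where WT-27 (Lpin1) and KO-03 (Mogat1) stand away from their groups.

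The 5 genes whose values over the 7 arrays lay nearest to those of Agpat1, by the root mean square difference after each gene's mean was subtracted, were sought among 9096 genes at or above the median level. They were Hjv, the hemojuvelin coreceptor of iron sensing, at 0.086, the kinase Map4k4 at 0.122, the isocitrate dehydrogenase subunit Idh3g at 0.124, Ralgapb, a subunit of a Ral GTPase activator, at 0.126 and the clock gene Per1 at 0.127. All were chosen for a pattern that holds the difference between genotypes, so their differences of 0.89 to 1.15 are a description.

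Around the members, 83 further genes of the pathway were listed in 8 groups, and 77 were measured. With 1 probe set per gene, 4 rose, 1 fell and 72 did not pass in limma at an adjusted p under 0.05, where 2.58% of all 18193 genes rose and 0.951% fell. The median difference was -0.02, against 0.01 over all genes. Among other acyltransferases, 2 of 8 rose and 0 fell, with a list median of 0.17. Mogat2, the second monoacylglycerol acyltransferase, went from 5.22 ± 0.17 (SD, n = 3) to 6.48 ± 0.32 (SD, n = 4), a rise of 1.25 ± 0.18 (SE, limma adjusted p = 0.00836). Unlike in Mogat1, all 4 knockouts lay above all wild types. Wild-type Mogat2 was dim, with WT-104 at 5.15 against a floor of 5.10 on that array, though every array lay above its floor. Lpcat3, which puts polyunsaturated chains on lysophosphatidylcholine, rose by 0.67 ± 0.12 (SE, limma adjusted p = 0.0203). Gpat3 was 6.64 ± 1.21 (SD, n = 3) and 7.66 ± 0.22 (SD, n = 4) and did not pass.

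**Figure D4:**
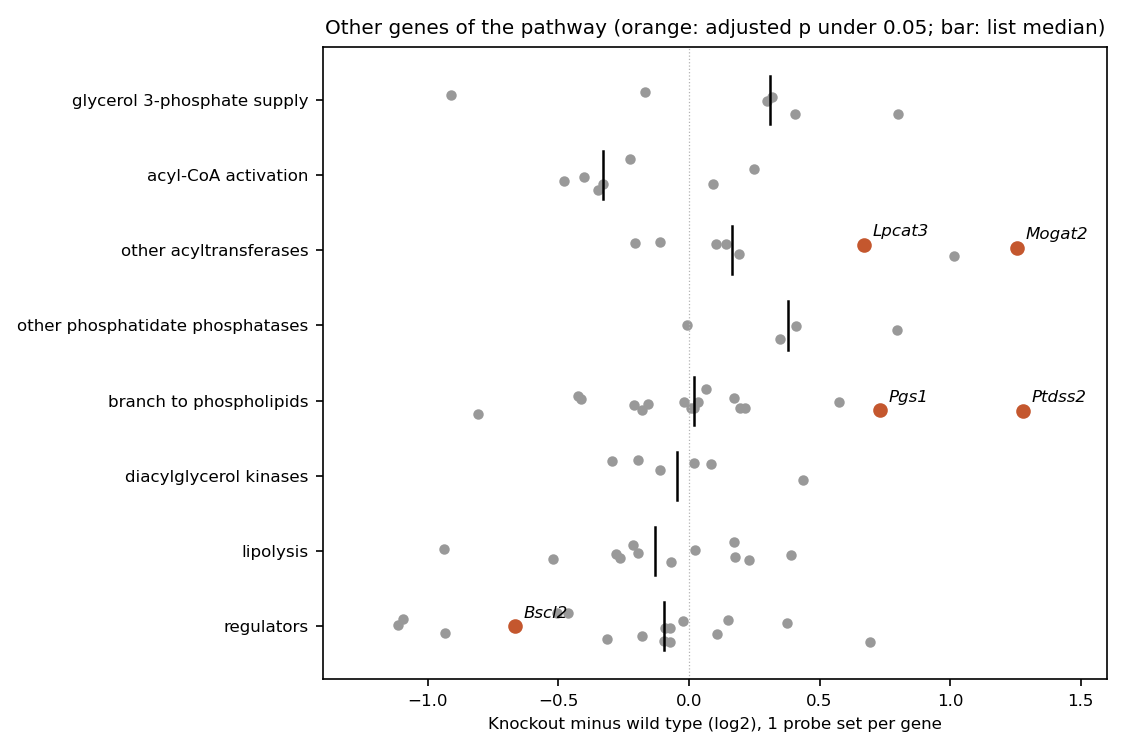
Difference, knockout minus wild type on the log2 scale, of the 77 measured genes of the 8 pathway groups, 1 probe set per gene. Mogat2, Lpcat3, Pgs1 and Ptdss2, in orange to the right, rose and Bscl2, in orange to the left, fell; grey points did not pass, and black bars mark the median of each group.

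Of 17 genes on the branch to phospholipids, 2 rose and 0 fell, with a median of 0.02. Ptdss2, which makes phosphatidylserine, rose by 1.28 ± 0.20 (SE, limma adjusted p = 0.0129). It has 9 probe sets, of which 5 rose in the fit of all probe sets, 4 did not pass, and 2 of the 4 did not exceed the floor in any animal. Pgs1, the enzyme that makes phosphatidylglycerol phosphate on the way to cardiolipin, rose by 0.73 ± 0.15 (SE, limma adjusted p = 0.0339). Its 4 probe sets differed by -0.19 to 0.79, and 1 rose in the fit of all probe sets, while the probe set behind the first value did not (limma adjusted p = 0.0529). Of 17 regulators and partners, 0 rose and 1 fell, with a median of -0.10. Bscl2, which encodes seipin, fell by 0.67 ± 0.11 (SE, limma adjusted p = 0.0137), and its second probe set differed by -0.38 and did not pass (limma adjusted p = 0.132). Of these 5 genes, each lost its call without WT-103, with limma adjusted p of 0.0553 for Mogat2, 0.103 for Lpcat3, 0.0744 for Ptdss2, 0.147 for Pgs1 and 0.0761 for Bscl2. Calls were also lost without WT-27 for Ptdss2 and Pgs1, without WT-104 for Lpcat3, Pgs1 and Bscl2, without KO-90 for Lpcat3 and Pgs1, without KO-91 for Lpcat3 and Bscl2, and without KO-94 for Pgs1. Without KO-03 the counts were 7 higher and 4 lower. The shares of all genes given above belong to the fit of all 7 animals only.

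Transcription factors and coactivators of lipid synthesis were named after their values were seen. Srebf1 was at -1.10, Mlxipl at -0.94 and Ppargc1b at -1.11, and they did not pass (limma adjusted p = 0.146, 0.215 and 0.0685). The genotypes overlapped for Srebf1 and Mlxipl and not for Ppargc1b. These were the lowest of the 17 measured regulators and partners. Of the 17, 4 differed above 0 and 13 below, against 9557 and 8636 of all 18193 genes.

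In the remaining 5 groups no gene passed in limma. At an unadjusted p under 0.05, where 10.2% of all genes were higher and 6.23% lower, there were 12 higher and 9 lower over the 77 list genes. In these 5 groups there were 4 higher and 1 lower of 6 genes of glycerol 3-phosphate supply. Aqp7, among those 4, did not exceed the floor in any animal. There were 0 higher and 2 lower of 7 genes of acyl-CoA activation and 1 and 0 of 4 other phosphatidate phosphatases. Among 6 diacylglycerol kinases there were 1 and 0, and among 12 genes of lipolysis 0 and 1. The mitochondrial glycerol-3-phosphate dehydrogenase Gpd2 was at -0.91 ± 0.21 (SE, limma adjusted p = 0.0531), and Gpd1l, related to the cytosolic enzyme, at 0.80 ± 0.20 (SE, limma adjusted p = 0.0714). Gpd2 passed without KO-03 (-1.08, limma adjusted p = 0.00799) and did not pass without WT-103 (-0.89, limma adjusted p = 0.1965). The fatty acid and bile acid CoA ligase Slc27a5 was at -0.48 (limma adjusted p = 0.062) and the acyl-CoA synthetase Acsl5 at -0.40. The phosphatases Plpp2 and Plpp1 were at 0.80 and 0.41. Plpp2 passed without KO-03 (limma adjusted p = 0.00690) and did not pass without WT-103 (0.74, limma adjusted p = 0.3245). The second Plpp2 probe set, at or under the floor on 2 wild-type and 3 knockout arrays, differed by -0.02. Among diacylglycerol kinases, Dgkd was at 0.44 and Dgkz at -0.30. In lipolysis, the diacylglycerol lipase Daglb was at -0.94 ± 0.24 (SE, limma adjusted p = 0.0786), with 2 knockouts at or under the floor. It passed without KO-03 (-1.17, limma adjusted p = 0.00360) and did not pass without WT-103 (-0.92, limma adjusted p = 0.251). Abhd5, the activator of adipose triglyceride lipase, was at -0.22. In an alternative fit of all animals with array weights, Gpd2, Gpd1l, Slc27a5, Plpp2 and Daglb passed (limma adjusted p = 0.00985 to 0.0481). Acsl5, Plpp1, Dgkd, Dgkz and Abhd5 did not. Gpd2 and Slc27a5 also passed with a trended and robust prior and with the filter on dim values.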

How the data were processed

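The authors deposited log2 values from RMA, run in Partek software as the design text and the submitters' processing notes record. RMA removes background, gives all arrays 1 common distribution and combines the probes of a set. Versions and the genome build of the probe sets are not stated in the sources used. Of 45101 probe sets, 64 controls were left out. Platform annotation gave 1 symbol to 34945, and Entrez identifiers matched 34741 in a RefSeq table.

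The genotypes were contrasted by limma 3.58.1 under R 4.3.3 (lmFit, eBayes, two-sided, without covariates), with Benjamini-Hochberg adjustment over all 45037 probe sets for the members and over 18193 genes (the probe set with the highest mean) for the pathway lists. The fits were tested on simulated data. Each array is 1 animal, so p-values weigh the difference between genotypes against the spread between animals. The eBayes step draws the spread of each probe set toward that of the others. Genes named were every member, list genes that passed, the 2 with the smallest p of each list with none, and the 5 nearest Agpat1. The members and lists were chosen with earlier results of these data known. Gpat3, G0s2, Chka, Srebf1, Mlxipl and Ppargc1b were named after their values were seen. The floor of 27 bacterial controls was chosen after the data were seen. Figures used Python 3.11.15 and matplotlib 3.10.9.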

Additional observations from a re-analysis of the deposited data

Results flagged for a closer look

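The Lpin2 probe set 1452837_at had 1 knockout animal far from the others. KO-03 stood at 9.74 and the other knockouts at 8.91 to 9.04. The gap was 0.840 of the range of the 4 animals, above Dixon's 95% critical value for 4 samples. This was 1 of 38 values tested, and chance alone gives about 1 in 20.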

How the results depend on the processing

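Alternatives changed the prior, the array weights, the normalization, the filter, the choice of probe sets, the threshold and the animals. The count of member probe sets that rose, 2 as reported, was 1 with 1 probe set per gene, 1 with the mean of each gene's probe sets, and 1 at an adjusted p under 0.01. The first 2 allow 1 value per gene. It was 1 to 3 when 1 animal was left out. None fell in any of these settings. Agpat1 1421025_at passed in all 17 alternatives, with limma adjusted p up to 0.0230. The count of list genes that rose, 4 as reported, was 7 with array weights and 1 at an adjusted p under 0.01. It was 3 with the mean of all probe sets, where Pgs1 lost its call (limma adjusted p = 0.0544), and 0 to 7 without 1 animal. The count that fell, 1 as reported, was 3 with a trended and robust prior, 5 with array weights, 3 with the filter on dim values, 2 with the mean of all probe sets, 0 at an adjusted p under 0.01, 4 without KO-03 and WT-104 together, and 0 to 4 without 1 animal. The cause was not tested, and the shares of all genes given above belong to the main fit only. Members that changed sign never passed. They were Agpat5 1434287_at (-0.032 with renewed quantile normalization), Agpat3 1450504_a_at (0.16 with the mean of all probe sets), and, without KO-03 and WT-104 together, Agpat5 1453257_at (0.025), Lpin2 1446316_at (-0.49) and Dgat1 1418295_s_at (0.12). Without 1 animal, the range was -0.19 to 0.046 for Agpat3 1433817_at, -0.092 to 0.091 for Agpat5 1434287_at, -0.24 to 0.037 for Agpat5 1458669_at, -0.095 to 0.080 for Dgat1 1418295_s_at, -0.14 to 0.033 for Dgat1 1445229_at and -0.41 to 0.61 for Lpin2 1446316_at. Probe sets at the floor limit what can be read from dim members.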
